A study of Rattus norvegicus with 34 samples.

Results

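In rat sperm, 4148 windows of 1 kb carried less MeDIP signal in F1 ifosfamide pools than in F1 control pools, while the F2 ifosfamide pools lay near or above the F1 control level. They were chosen from the measured values. All windows of chromosomes 1 to 20 whose F1 control mean reached 0.5 RPKM, the read count scaled to window length and library size, were eligible, and 743101 of the 2618741 windows on these chromosomes met that. A window was a member where the F1 ifosfamide mean was at most 0.67 times the F1 control mean and the F2 ifosfamide mean at least 0.9 times it. The members made up 0.558% of the eligible windows. A mirror set, with F1 ifosfamide at least 1.5 times and F2 ifosfamide at most 1.1 times the control, held 1140 windows (0.153%). The values that chose both sets are given as a description, without a test.

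MeDIP-seq pulls down DNA fragments with an antibody against 5-methylcytosine, so that the read density of a window reflects how many methylated CpG sites it holds, how often they are methylated and how many copies of the sequence the genome has. Most of the mammalian sperm genome is methylated outside CpG islands. Methylation is erased in primordial germ cells and written anew during male germ cell development, and most of the pattern that the sperm brings is removed again in the early embryo.

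The animals were outbred Sprague Dawley rats. Pubertal F0 males received 3 intraperitoneal injections of 8.5 mg/kg ifosfamide, an alkylating chemotherapy drug, on days 26, 29 and 32 of age, and control males received 1.1 mL/kg phosphate-buffered saline on the same schedule. Only F0 males were treated. The F1 ifosfamide group was sperm DNA of untreated sons of treated males in 6 pools of 3 to 4 males, out of 18 F1 males of that lineage. The F2 ifosfamide group was sperm DNA of the next generation, bred from F1 animals of 80 to 90 days within the lineage, in 6 pools of 8 or 9 males. The F1 control group was sperm DNA of sons of saline-treated males in 6 pools of 3 to 4 males, out of 25. The labels list 43 F2 ifosfamide males, fewer than 6 pools of 8 or 9 would hold, and do not say whether pools share males or litters. The sources used here give neither the ages at sperm collection nor the families behind each pool, so p-values measure the spread between these pools, whatever it holds. The F2 control pools were not analysed here: the F2 pools are set against controls of another generation, and lineage and generation cannot be told apart in that comparison. The word restored therefore describes a level near that of the F1 controls and nothing more. The labels describe a brief sonication with washing to clear somatic cells. The purity of the sperm was not checked here, since marker loci need an annotation of the build of the files.

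Summed over all windows, the libraries held 25531658 to 39440265 counts in F1 ifosfamide, 27424144 to 36309987 in F2 ifosfamide and 23336048 to 34051679 in F1 control. Some libraries stood apart. F1 ifosfamide pools 1 and 2 were closer to each other (chi-square per degree of freedom 1.08) than to pools 3 to 6 of their group (1.35 to 1.79). All other pairs of that group had 1.11 to 1.79, pairs of F2 ifosfamide pools 1.05 to 1.27 and pairs of F1 control pools 1.11 to 1.45. Some pairs of F2 ifosfamide pools were thus as close as F1 ifosfamide pools 1 and 2. F1 control pools 4 and 6 were the 2 highest controls in 34.6% of members and pool 1 the lowest in 47.1%, against 8.85% and 18.3% of eligible windows, and in most members only from 1 RPKM up. Counts are therefore also given without these pools. The depth of these 3 libraries was similar, with 25503800 counts in pool 1, 23336048 in pool 4 and 25973411 in pool 6.

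The median member had 0.46 RPKM in F1 ifosfamide pools and 0.757 RPKM in F2 ifosfamide pools, against 0.736 RPKM in F1 control pools. The quartiles of the members were 0.363 and 0.747 RPKM in F1 ifosfamide, 0.598 and 1.22 RPKM in F2 ifosfamide and 0.582 and 1.18 RPKM in F1 control pools, and the highest member reached 142 RPKM in the controls. The ratio of F1 ifosfamide to control had a median of 0.637 and a lowest value of 0.316, so that most members lay close under the limit of 0.67. The ratio of F2 ifosfamide to control had a median of 1.00. Over all eligible windows the medians were 1.02 for F1 ifosfamide and 0.992 for F2 ifosfamide.

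Most members were low windows with few reads behind them. The 18 libraries together held a median of 296 counts in a member (quartiles 235 and 478), against 378 in an eligible window. Counting alone gives the log2 ratio of F1 ifosfamide to control a standard error of 0.218 in the median member, for independent reads. The coefficient of variation over pools had a median of 0.313 in F1 ifosfamide, 0.228 in F2 ifosfamide and 0.286 in F1 control, where counting alone gives 0.281, 0.227 and 0.24 in the same order of groups. In the median member the spread over pools was thus near what sampling of reads gives in F2 ifosfamide pools and above it in the F1 groups. Over all eligible windows the medians were 0.221, 0.21 and 0.225, where counting alone gives 0.209, 0.218 and 0.228. The members were chosen by means of these pools, so their spread is not independent of the rule. In the 79 members at 10 RPKM and over the median was 0.259 in F1 control pools, where counting gives 0.0524. It was 0.144 in F1 ifosfamide and 0.0891 in F2 ifosfamide pools, whose counting values at this level are not given here. F2 ifosfamide pools held 8 or 9 males and the F1 pools 3 to 4, and the part of pool size in the spread was not tested.

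How often low signal in F1 ifosfamide pools came with a level near the controls in F2 ifosfamide pools depended on the signal of the window. In all, 8083 eligible windows had F1 ifosfamide at most 0.67 times the control, and 51.3% of these were members. For comparison, 72.6% of all eligible windows had F2 ifosfamide at or above 0.9 times the control. The member share of the F1-low windows was 45% at control levels of 0.5 to 1 RPKM, 71.6% at 1 to 3 RPKM, 79.7% at 3 to 10 RPKM and 92.9% at 10 RPKM and over. The 72.6% was not split by level, so this rise has no background beside it and nothing is read from it. On the other side, 2922 windows had F1 ifosfamide at least 1.5 times the control, and 39% of these were in the mirror set. Both ratios of a window share the same 6 control pools, so a control mean that is high by chance lowers both.

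**Figure D1:**
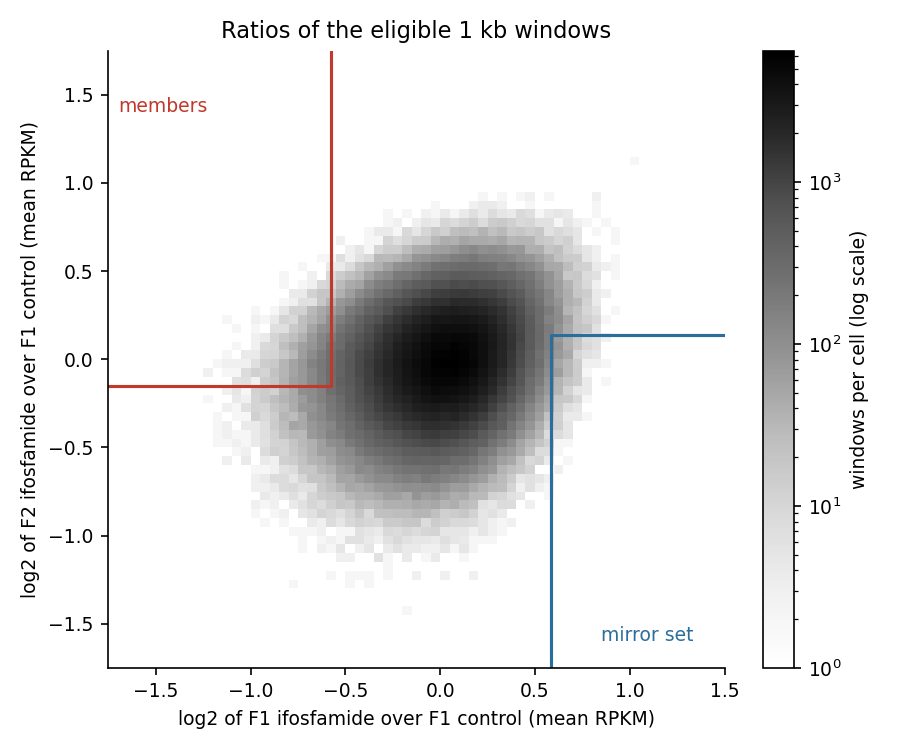
Eligible windows by the log2 ratio of mean RPKM of F1 ifosfamide to F1 control (horizontal) and of F2 ifosfamide to F1 control (vertical), with the number of windows per cell on a log grey scale. The red lines bound the 4148 members at the upper left and the blue lines the 1140 windows of the mirror set at the lower right; both sets lie at the edge of 1 continuous cloud, without a gap.

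No gap separated members from other windows. The windows just inside the limit on F1 ifosfamide, chr2:5223001-5224000 and chr2:92303001-92304000, had 0.335 RPKM in F1 ifosfamide pools and 0.5 RPKM in F1 control pools each, a ratio of 0.67. The windows just outside, chr10:107590001-107591000 and chr17:49456001-49457000, had 0.44 and 0.657 RPKM, a ratio of 0.670051. At the limit on F2 ifosfamide, the windows chr4:167695001-167696000 and chr15:25623001-25624000 were just inside with a ratio of 0.9, from 0.465 and 0.51 RPKM in F2 ifosfamide pools against 0.517 and 0.567 RPKM in F1 control pools. The windows chr7:59461001-59462000 and chr11:65033001-65034000 were just outside, with ratios of 0.899772 and 0.899761.

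The share of windows that were members depended on the signal level, and differently from the mirror set. Between 0.5 and 0.75 RPKM in the controls, 0.672% of eligible windows were members and 0.267% were in the mirror set. The member share was smallest, at 0.359%, between 1 and 1.5 RPKM. It was 1.44% between 3 and 5 RPKM, 4.2% between 5 and 10 RPKM and 8.57% at 10 RPKM and over, where 79 of 922 eligible windows were members. The mirror share was 0.0426% between 1 and 1.5 RPKM, no window was in the mirror set between 3 and 5 RPKM, and 4 of the 922 windows at 10 RPKM and over (0.434%) were. The control level is part of the rule, so these shares carry no test.

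**Figure D2:**
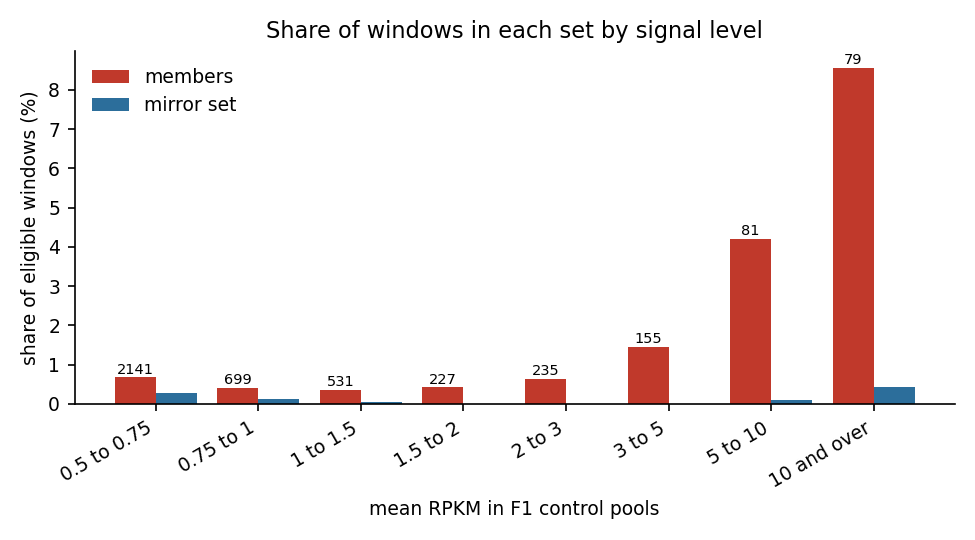
Share of eligible windows in each set (vertical, percent, from 0) by the F1 control mean in RPKM (horizontal), for members (red, with their number above the bar) and the mirror set (blue). The member share is 0.672% in the lowest class and 8.57% in the highest, while the mirror share is 0.267% and 0.434%.

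Pools were mostly low together on the F1 side, but rarely without overlap. In 3179 members (76.6%) all 6 F1 ifosfamide pools lay below the mean of the controls, in 935 members 5 pools did and in 34 members 4 did. The same shares over all eligible windows are not given here, and nothing is read from these counts. In 254 members (6.12%) all 6 F1 ifosfamide pools lay below all 6 F1 control pools, against 0.133% of all eligible windows, and nothing is read from the difference because the rule used these means. Leaving out 1 pool changed how many members, chosen anew, were without overlap. Both the number of pools compared and the list of members differ in these counts. The number was 748, 532, 338, 442, 370 and 429 without F1 ifosfamide pools 1 to 6, each left out in turn. It was 717, 366, 394, 274, 413 and 303 without F1 control pools 1 to 6. All these numbers exceed 254, and fewer pools are more easily without overlap. The shares of eligible windows in these settings are not given here, so the rise is not tied to particular pools. In 264 members no F1 ifosfamide pool lay below the lowest control, and the most frequent number was 4 pools, in 957 members. Of the 743101 eligible windows, 405695 had no such pool and 16237 had 4, and the rule again used these means. All 6 F2 ifosfamide pools lay above all 6 F1 ifosfamide pools in 647 members (15.6%, background 0.54%). Both held in 134 members (3.23%, background 0.0284%), in which the F1 ifosfamide pools stood below all 12 others. In the mirror set, 160 windows (14%, background 0.185%) had all F1 ifosfamide pools above all controls, and in 272 (23.9%, background 0.956%) all F2 ifosfamide pools lay below all F1 ifosfamide pools. In 92 (8.07%, background 0.0445%) the F1 ifosfamide pools stood above all 12 others.

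The count model gave calls for a minority of members in the F1 comparison. In F1 ifosfamide against F1 control, edgeR's quasi-likelihood test called 581 of 1043656 windows (0.0557%) at an adjusted p of 0.05, 530 (0.0508%) lower and 51 (0.00489%) higher. Of the 4148 members, 4051 passed the filter on low counts, and 340 of these were called lower. In the mirror set 4 of 1140 were called higher. The members called were 19 of 2840 at 0.5 to 1 RPKM, 111 of 993 at 1 to 3 RPKM, 133 of 236 at 3 to 10 RPKM and 77 of 79 at 10 RPKM and over. Of all eligible windows, 48 of 489406, 188 of 240105, 185 of 12668 and 111 of 922 were called in either direction at the same levels. At the low levels that held most members, a ratio of this size in 6 against 6 pools was thus rarely called at this depth. These calls describe the members and are no further evidence for them. With DESeq2's Wald test 351 windows were called, 207 of them members, and 951004 windows had no adjusted p there. With edgeR's robust quasi-likelihood fit, tried after seeing the data, 340 windows were called, 214 of them members. Over the other settings tried, the members called ran from 150 with a minimum count of 30 to 526 without a filter on low counts.

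In F2 ifosfamide against F1 control the same test called 253 of 919249 windows (0.0275%), 152 (0.0165%) higher and 101 (0.011%) lower. Of 4147 members tested, 3 were called higher and none lower. Since the rule asks for a ratio of at least 0.9, members could hardly be called lower. In F2 against F1 ifosfamide it called 21358 of 1062540 windows (2.01%), 12517 (1.18%) higher in F2 and 8841 (0.832%) lower. Of 4089 members tested, 1912 were called higher in F2, a direction that the rule itself fixes. DESeq2's Wald test called 8210 windows (0.773%), 804 of them members, and 721009 windows had no adjusted p there. In the mirror set, 474 of 1140 were called lower in F2.

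The median levels of the members differed between the pools of a group more than those of the eligible windows. Set against the control mean of the same window, the median level over all members was 0.743, 0.691, 0.528, 0.6, 0.549 and 0.582 in F1 ifosfamide pools 1 to 6. It was 0.898, 1.02, 1.07, 1.09, 0.997 and 1 in F2 ifosfamide pools 1 to 6, and 0.768, 0.942, 0.991, 1.2, 0.873 and 1.17 in F1 control pools 1 to 6. Control pools 4 and 6 thus stood above the other controls, control pool 1 stood lowest among them, and F1 ifosfamide pool 1 at 0.743 came close to control pool 1 at 0.768. F2 ifosfamide pool 1 was the lowest of its group. Over the eligible windows between 0.5 and 1 RPKM the same medians ran from 0.946 to 1.03 in F1 ifosfamide, from 0.954 to 1.01 in F2 ifosfamide and from 0.953 to 1.02 in F1 control pools. Over the 922 eligible windows at 10 RPKM and over, 79 of them members, they were 0.919, 0.956, 1.01, 1.02, 1 and 1.04 in F1 control pools 1 to 6, with pool 1 lowest and pools 4 and 6 highest there too, in a narrower range.

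**Figure D3:**
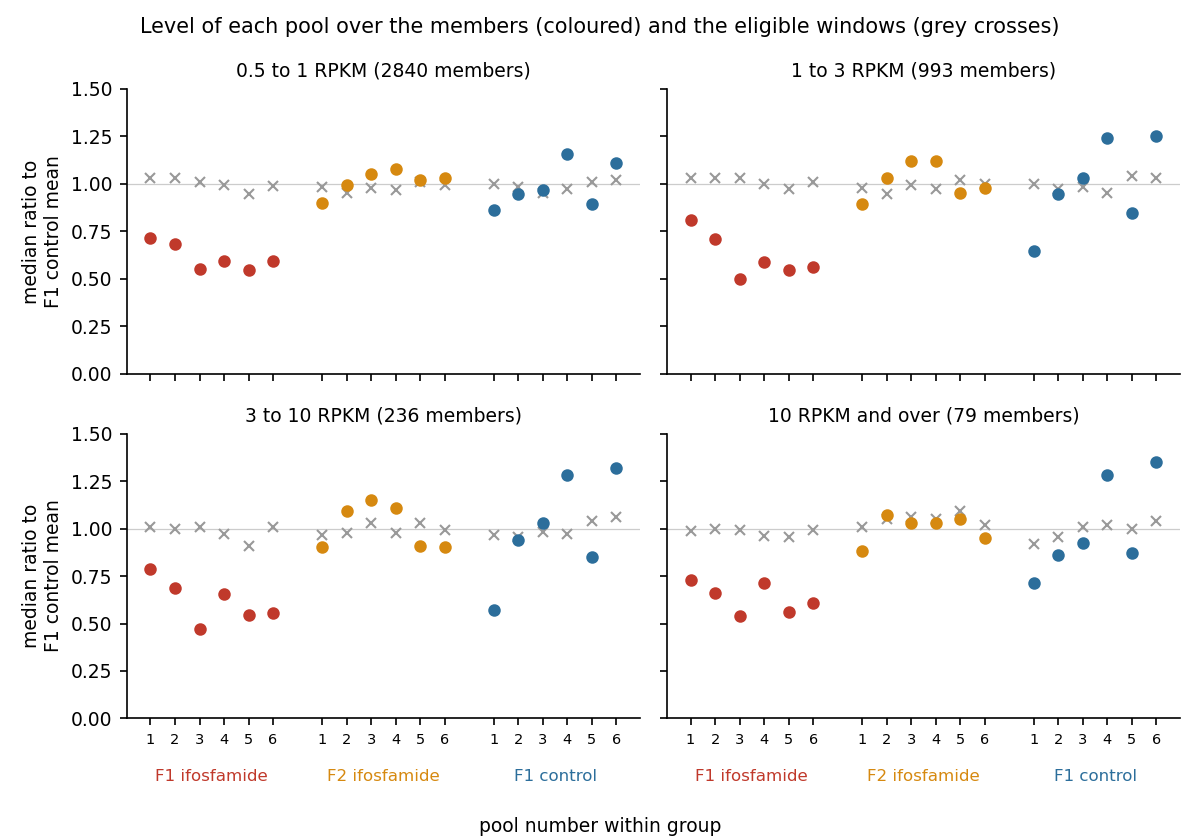
Median ratio of each pool to the F1 control mean of the window (vertical) for pools 1 to 6 of F1 ifosfamide, F2 ifosfamide and F1 control (horizontal), in 4 classes of control level; coloured points are members and grey crosses all eligible windows of the class. Control pools 4 and 6 are high and control pool 1 is low among the members of every class, while the grey crosses lie between 0.906 and 1.09.

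This order was sharper in stronger members. Control pools 4 and 6 were the highest controls in 23.5% of members at 0.5 to 1 RPKM, 52% at 1 to 3 RPKM, 74.6% at 3 to 10 RPKM and 93.7% at 10 RPKM and over. In all eligible windows of the same levels the shares were 8.61%, 8.91%, 16.1% and 20.7%. Control pool 1 was the lowest control in 33.1%, 71.6%, 94.5% and 98.7% of members by rising level, and in 17.3%, 19.4%, 30.4% and 39.8% of eligible windows. In the 79 members at 10 RPKM and over, the control pools had median ratios of 0.711, 0.86, 0.926, 1.28, 0.869 and 1.35. The median correlation of a member's deviations within groups with the median profile of these 79 members was 0.285, 0.6, 0.746 and 0.949 by rising level, over 18 pools, against values between -0.0126 and 0.0769 in eligible windows. The 79 members are their own profile in the last class. The mirror set ran the other way, with a median correlation of -0.252.

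On the F1 ifosfamide side, pools 1 and 2, the pair that lay close together, averaged above pools 3 to 6 in 3128 members (75.4%), against 55.2% of eligible windows. In the mirror set F1 ifosfamide pools 3 and 5 were the highest of their group in 24.3% and 26.6% of windows, against 16.5% and 16.6% of eligible windows. Control pool 4 was the lowest control in 36.5% of mirror windows, against 21.4% of eligible windows.

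The number of members rested on these pools. It was 8178 without F1 ifosfamide pool 1 and 6828 without pool 2. Without F1 control pool 1, 4 or 6 it stayed within 1.5 times the 4148, and 70%, 54.5% and 56.8% of the members were kept. The mirror set held 1959, 1793 and 1740 windows without F1 ifosfamide pools 1, 2 and 6, and 1728 without F1 control pool 5. Without control pools 4 and 6, which was chosen after seeing the data, 2360 windows met the rule, and 1404 of them were among the 4148 members (33.8% of the members). The share kept was 39.8% at 0.5 to 1 RPKM, 21.9% at 1 to 3 RPKM, 20.8% at 3 to 10 RPKM and 10.1% at 10 RPKM and over. In the original members the median ratio of F1 ifosfamide to these 4 controls was 0.69, and that of F2 ifosfamide was 1.12. At 10 RPKM and over the same ratios were 0.76 and 1.2. Against control pools 1, 2, 3 and 5, the strongest members were therefore less low in F1 ifosfamide and lay above the controls in F2 ifosfamide. Leaving out control pool 1 and F1 ifosfamide pools 1 and 2 moved the ratios of the original members the other way, to medians of 0.556 in F1 ifosfamide and 0.969 in F2 ifosfamide. In that setting 19108 windows met the rule and 5309 the limits of the mirror set. With 3.6 members per mirror window against 3.64 with all pools, the rise was not particular to the members. What sets the order of the pools was not tested. The order is not independent of the rule, since a control mean raised by single pools lowers the ratio of F1 ifosfamide.

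The strongest members showed this pattern window by window. The member highest in the controls lay on chromosome 1 at 36361001 to 36362000 (Rnor_6.0). Its signal was 106, 96.5, 82.6, 101, 80 and 86.8 RPKM in F1 ifosfamide pools 1 to 6. It was 123, 149, 140, 142, 151 and 133 RPKM in F2 ifosfamide pools, and 107, 120, 132, 181, 125 and 189 RPKM in F1 control pools. The F1 ifosfamide pools did not overlap the F2 pools, but their highest pool, at 106 RPKM, was next to the lowest control, at 107 RPKM, and only control pools 4 and 6 stood above all F2 pools. The means were 92.2 ± 10.6, 140 ± 10.3 and 142 ± 34.2 RPKM (SD, n = 6 each) in F1 ifosfamide, F2 ifosfamide and F1 control pools. Without control pools 4 and 6 the ratio of F1 ifosfamide to control was 0.763 in place of 0.648, and that of F2 ifosfamide 1.16 in place of 0.983.

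On chromosome 15 at 78122001 to 78123000 the signal was 36.6 to 65.5 RPKM in F1 ifosfamide pools (median 48) and 78.7 to 114 RPKM in F2 ifosfamide pools (median 93.7), against 53.6 to 140 RPKM in F1 control pools (median 88.5). Control pool 1, at 53.6 RPKM, lay within the range of the F1 ifosfamide pools, and all F2 pools lay above that range. The ratios to the control mean were 0.522 in F1 ifosfamide and 0.966 in F2 ifosfamide. The next in level lay on chromosome 11 at 90463001 to 90464000, with 35.6 to 55.4 RPKM in F1 ifosfamide, 63.9 to 75.3 RPKM in F2 ifosfamide and 46.3 to 96.7 RPKM in F1 control pools. There too control pool 1 fell among the F1 ifosfamide pools and control pools 4 and 6 above all F2 pools.

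The other 3 of the 6 highest members were chr13:33592001-33593000, chr18:47037001-47038000 and chr7:145728001-145729000, with means of 40.3, 32 and 27.1 RPKM in F1 ifosfamide pools, 67.1, 48.9 and 42.5 RPKM in F2 ifosfamide pools and 61.4, 48.4 and 42.6 RPKM in F1 control pools. In each of these 3 the F1 ifosfamide pools reached the lowest control, and the F2 pools lay above the highest F1 ifosfamide pool. The window at 33592001 differed from the others in its controls, of which pools 3, 4 and 6 had 69.4, 71.8 and 77.5 RPKM and pool 1 had 35.

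**Figure D4:**
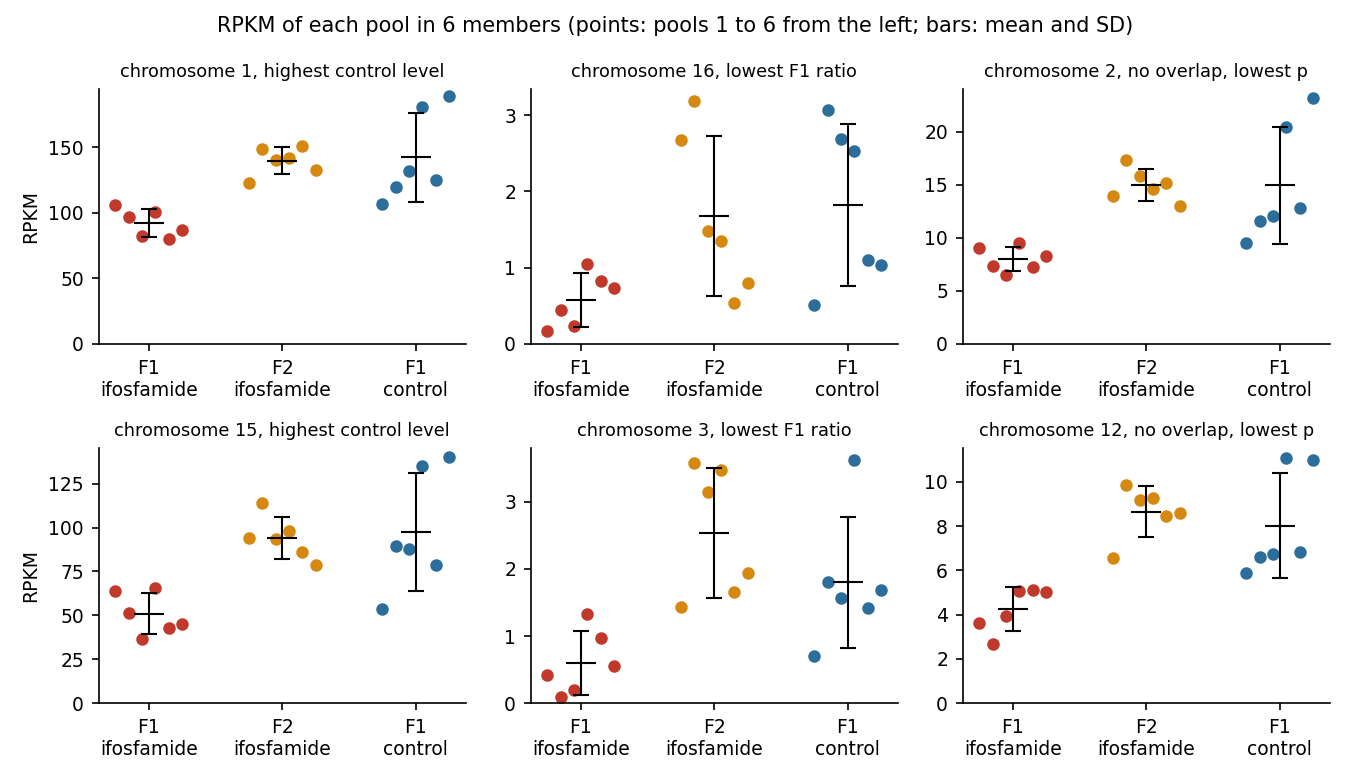
RPKM of each pool (vertical, from 0) in F1 ifosfamide, F2 ifosfamide and F1 control (horizontal; pools 1 to 6 from the left, bars for mean and SD) in 2 of the members highest in the controls, 2 of those with the lowest F1 ratio and 2 of those without overlap. In the windows of chromosomes 1, 15, 2 and 12 control pools 4 and 6 stand above the other controls, and in those of chromosomes 16 and 3 the pools of each group spread widely.

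Among the 134 members in which F1 ifosfamide pools stood below all others, the lowest p of the F1 comparison belonged to a window on chromosome 2 at 127567001 to 127568000. Its signal was 9.03, 7.38, 6.48, 9.51, 7.26 and 8.33 RPKM in F1 ifosfamide pools 1 to 6 and 13.9, 17.3, 15.8, 14.6, 15.2 and 13 RPKM in F2 ifosfamide pools. In F1 control pools it was 9.55, 11.6, 12.1, 20.5, 12.8 and 23.2 RPKM. The highest F1 ifosfamide pool and the lowest control were 9.51 and 9.55 RPKM, so the gap between the groups was far smaller than the spread within them. The means were 8 ± 1.16, 15 ± 1.49 and 15 ± 5.51 RPKM (SD, n = 6 each), and without control pools 4 and 6 the ratios were 0.694 in F1 ifosfamide and 1.3 in F2 ifosfamide.

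The next, on chromosome 12 at 49407001 to 49408000, had 2.69 to 5.1 RPKM in F1 ifosfamide, 6.58 to 9.87 RPKM in F2 ifosfamide and 5.87 to 11.1 RPKM in F1 control pools. The F1 ifosfamide pools were clear of both other groups, and F2 ifosfamide and F1 control pools overlapped. The ratios were 0.528 in F1 ifosfamide and 1.08 in F2 ifosfamide, and without control pools 4 and 6 they were 0.652 in F1 ifosfamide and about 1.3 in F2 ifosfamide. The other 6 windows named by this rule were chr7:104099001-104100000, chr7:144928001-144929000, chr15:15211001-15212000, chr8:89582001-89583000, chr1:56790001-56791000 and chr2:214675001-214676000. Their ratios ran from 0.546 to 0.596 in F1 ifosfamide and from 0.912 to 1.04 in F2 ifosfamide. In all 8, control pools 4 and 6 were the highest controls.

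In 5 of the 6 members with the lowest F1 ratios, the pools of every group spread more widely than in the median member, and 4 of these 5 held 521 to 733 counts over the 18 libraries. The lowest, on chromosome 16 at 39108001 to 39109000, had 0.17, 0.44, 0.23, 1.05, 0.83 and 0.73 RPKM in F1 ifosfamide pools 1 to 6. It had 2.67, 3.19, 1.48, 1.35, 0.54 and 0.8 RPKM in F2 ifosfamide pools and 0.51, 3.06, 2.69, 2.53, 1.1 and 1.03 RPKM in F1 control pools. All 3 groups overlapped, and the lowest F1 ifosfamide library held 5 counts of this window. Its ratio to control was 0.316 in F1 ifosfamide (0.575 ± 0.351 against 1.82 ± 1.06 RPKM) and 0.918 in F2 ifosfamide (1.67 ± 1.05 RPKM), and without control pools 4 and 6 the ratios were 0.313 in F1 ifosfamide and 0.909 in F2 ifosfamide.

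A window on chromosome 3 at 118675001 to 118676000 followed, with 0.592 ± 0.476 RPKM in F1 ifosfamide pools, 2.54 ± 0.967 RPKM in F2 ifosfamide pools and 1.8 ± 0.973 RPKM in F1 control pools (SD, n = 6 each). There the F2 pools lay above all F1 ifosfamide pools, and the ratio of F2 ifosfamide to control was 1.41. The windows chr14:98318001-98319000 and chr3:18164001-18165000 had ratios of 0.374 and 0.387 in F1 ifosfamide. In these 4 windows F1 ifosfamide pools 1 to 3 were lower than pools 4 and 5, which is not the order of the stronger members. The remaining 2 of the 6 lowest, chr18:67495001-67496000 and chr13:33344001-33345000, had F1 ifosfamide pools below all others at low counts, 187 and 193 over the 18 libraries. Their highest F1 ifosfamide pools had 0.32 and 0.28 RPKM, against lowest F2 ifosfamide pools of 0.36 and 0.3 RPKM and lowest controls of 0.39 and 0.33 RPKM. The window at 33344001 did not pass the count filter of the F1 comparison.

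The rule sets no upper limit on F2 ifosfamide, and some members lay above the controls there. F2 ifosfamide was within 1.1 times the control in 3332 members (80.3%) and above that in 816, above 1.25 times in 122 and above 1.5 times in 9. The 3 members called higher in F2 ifosfamide than in control were chr3:36093001-36094000, chr4:36270001-36271000 and chr8:3368001-3369000, named because they were so few. The window at 36093001 had 1.42 to 5.81 RPKM in F1 ifosfamide, 6.22 to 15.8 RPKM in F2 ifosfamide and 2.19 to 10.9 RPKM in F1 control pools, with ratios to control of 0.503 and 1.9. F2 ifosfamide pools 1 and 2, at 6.22 and 9.13 RPKM, lay among the controls and pools 3 to 6 above them. The windows at 36270001 and 3368001 had F1 ifosfamide ratios of 0.615 and 0.618 and F2 ifosfamide ratios of 1.81 and 1.86. In both, F2 ifosfamide pool 1 was the lowest of its group, at 5.77 and 4.3 RPKM against 8.71 and 6.93 RPKM or more in the other pools. In none of the 3 did DESeq2's Wald test or edgeR's robust fit make the call.

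Adjacent windows shared part of the difference, and windows from 2 kb on did not. Only windows that reached 0.5 RPKM in the controls were used, 1479 and 1493 of those next to a member on either side. Their median ratio of F1 ifosfamide to control was 0.884 and 0.89, and it was 1.01 and 0.995 at a distance of 2 kb. From 3 to 10 kb it was 1.01 to 1.03, near the 1.02 of all eligible windows. The ratio of F2 ifosfamide stayed between 0.984 and 1.02 at every distance. Reads that span a border are counted in both windows, 1.16 to 1.25 windows per read, so adjacent windows share part of their reads. Beside the mirror windows the ratio of F1 ifosfamide was 1.15 and 1.13 at 1 kb and 1.03 and 1.04 at 2 kb.

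**Figure D5:**
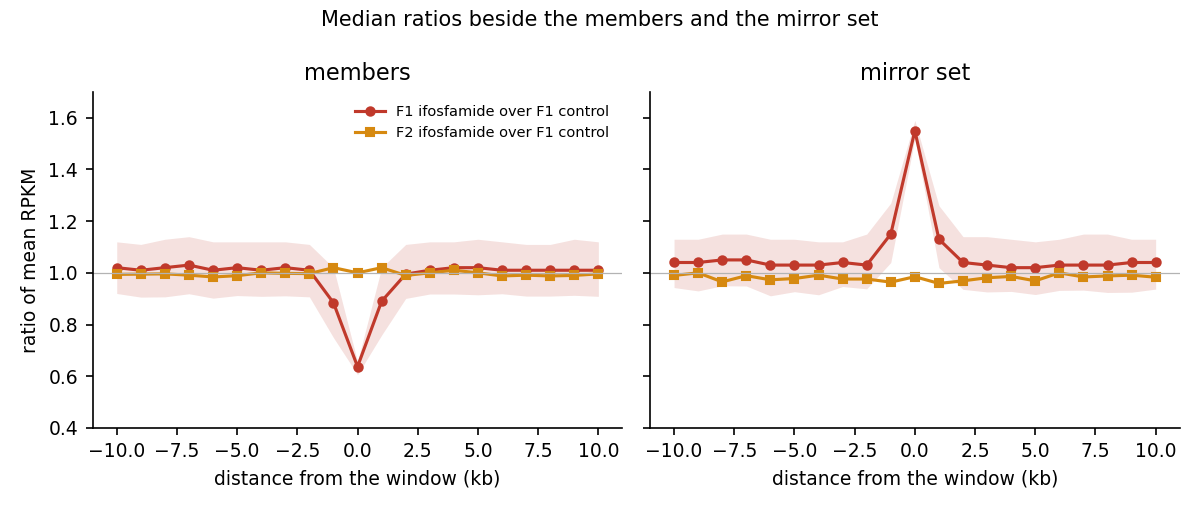
Median ratio of mean RPKM to F1 control (vertical) for F1 ifosfamide (red, with the quartiles shaded) and F2 ifosfamide (orange) by distance in kb from the window (horizontal), for members and the mirror set. The F1 ratio of members is 0.637 in the window, 0.884 and 0.89 next to it and about 1 from 2 kb on.

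Most runs of members were single windows, which a share of 0.558% of eligible windows makes likely in any placement. Whether pairs were more frequent than such a placement gives was not tested. Of 3985 runs of members with at most 1 kb between successive windows, 3822 were single and 163 held a pair. None was longer, and in the mirror set 1110 of 1125 runs were single. The 4 pairs first in genome order lay on chromosome 1. That at 56789001 to 56791000 was by far the strongest, with 7.47 ± 1.81 and 12 ± 1.98 RPKM in F1 ifosfamide, 13.4 ± 1.27 and 19.7 ± 1.45 RPKM in F2 ifosfamide and 13.2 ± 3.48 and 20.1 ± 5.2 RPKM in F1 control pools (SD, n = 6 each) in its 2 windows. Its second window was without overlap and its first was not, since F1 ifosfamide pools reached 9.58 RPKM and control pool 1 had 9.22 RPKM. The pairs at 43360001, 79671001 and 86234001 had control means of 0.56 to 1.29 RPKM and overlapping pools, and at 86234001 F2 ifosfamide had 1.51 and 1.71 RPKM against 1.23 and 1.29 RPKM in F1 control pools in its 2 windows.

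Many strong members were isolated windows, whose counts were at least 10 times those of either neighbour. This measure uses the sum over all libraries. It held for 140 members (3.38%), for 1 mirror window (0.0877%) and for 2286 eligible windows (0.308%). Of the 79 members at 10 RPKM and over, 46 were isolated. Of isolated windows at 0.5 to 1, 1 to 3 and 3 to 10 RPKM, 2.08%, 3.5% and 14.4% were members, against 0.578%, 0.4% and 1.58% of those not isolated. Their median F1 ifosfamide ratios were 0.952, 0.954 and 0.826, and 0.931 over all 2286. At 10 RPKM and over, 46 of the 113 isolated windows (40.7%) were members, against 33 of the 809 that were not isolated (4.08%). All 113 isolated windows together had a median F1 ifosfamide ratio of 0.687 and a median F2 ifosfamide ratio of 1.01, against 1.00 and 1.06 in the 809 others. The window at 36361001 on chromosome 1, for example, held 56549 counts over the 18 libraries between neighbours with 22 and 70. A high count between almost empty windows is measured over the sequence of that window in the genome build, and its copy number in these rats and how uniquely reads align to it were not tested.

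The 113 isolated windows at 10 RPKM and over, 46 of them members, showed the order of pools seen in the strong members. Their median ratios to the control mean were 0.787, 0.718, 0.596, 0.73, 0.617 and 0.658 in F1 ifosfamide pools 1 to 6. They were 0.893, 1.07, 1.05, 1.04, 1.06 and 0.969 in F2 ifosfamide pools, and 0.751, 0.885, 0.951, 1.24, 0.883 and 1.31 in F1 control pools. In the 67 that were not members the same medians were 0.902, 0.885, 0.783, 0.761, 0.828 and 0.813 in F1 ifosfamide, 0.952, 1.08, 1.06, 1.05, 1.06 and 0.994 in F2 ifosfamide, and 0.792, 0.946, 1.02, 1.13, 0.928 and 1.15 in F1 control pools. Control pools 4 and 6 were thus the highest controls and pool 1 the lowest in these medians too. The level limit uses the control mean, which is also the denominator of these ratios, so the profile is not independent of the contrast.

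Members were spread over all 20 chromosomes. The share of eligible windows that were members ran from 0.415% on chromosome 12 to 0.67% on chromosome 11, with 466 members on chromosome 1, the most on any. Of 2629 megabases with an eligible window, 2013 held a member. The megabase with the most, on chromosome 3 from 9000001 to 10000000, held 10 among 424 eligible windows (2.36%). Sequences and gene annotation of the members were not used here, since the reference at hand is of another genome build than the coordinates.

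The mirror windows showed the reverse order of groups at lower signal. The clearest, on chromosome 9 at 115766001 to 115767000, had 1.38 to 1.78 RPKM in F1 ifosfamide pools, 0.7 to 0.91 RPKM in F2 ifosfamide pools and 0.69 to 1.09 RPKM in F1 control pools. F1 ifosfamide was clear of both other groups, which overlapped, and the ratios were 1.83 in F1 ifosfamide and 0.924 in F2 ifosfamide. The windows chr6:59825001-59826000, chr6:118200001-118201000 and chr4:153813001-153814000 were likewise without overlap, with F1 ifosfamide ratios of 1.77, 1.87 and 1.67. Control pools 4 and 6 were the 2 lowest controls at 115766001 and 59825001 and were not at 118200001 and 153813001. The 4 mirror windows called higher in F1 ifosfamide were those at 115766001 and 59825001 and an adjacent pair on chromosome 14 at 46651001 to 46653000. Of the mirror windows, edgeR with a replicate block called 2, its robust fit 1 and DESeq2's Wald test 0. That pair had 14.6 ± 3.92 and 20.9 ± 4.28 RPKM in F1 ifosfamide, 9.59 ± 1.72 and 14 ± 1.64 RPKM in F2 ifosfamide and 8.87 ± 3.45 and 12.8 ± 4.36 RPKM in F1 control pools, with overlapping pools.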

How the data were processed

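MeDIP-seq of rat sperm pools was measured over 2782040 windows of 1 kb. The submitters' processing notes name Rnor_6.0 as the genome build, and edgeR, SAMtools, Bowtie2, Trimmomatic and FastQC as tools, without versions or settings. The authors' deposited tables hold raw read counts per window and library and the RPKM made from them, rounded to 2 decimals. Dividing one by the other gives 1 constant per library, and a read was counted in 1.16 to 1.25 windows. The deposited tables also hold the authors' own log2 fold changes, p-values and group means, which entered no result here. Both tables were joined by chromosome, start and stop. Of 34 libraries in the labels 18 were used, and 16 were not analysed here.

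Members and the mirror set were chosen on mean RPKM over 6 pools. The members, the windows named and the alternatives were chosen with earlier results of these data known. Windows were named by rule: the 6 members highest in the controls, the 6 with the lowest F1 ratio, the 8 with the smallest F1 p among those whose F1 ifosfamide pools lay below all others, the 4 longest runs, 4 mirror windows by the same rule turned round, and 2 on either side of each limit.

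Counts were fitted with edgeR 4.0.16 in R 4.3.3 (TMM, filterByExpr with a minimum count of 10, quasi-likelihood test, two-sided, Benjamini-Hochberg adjustment over all windows tested, threshold 0.05), with the 12 pools of each comparison. DESeq2 1.42.0, other normalization and filters, other library sizes, a robust fit, a replicate block, other limits and left-out pools were alternatives. p-values measure the spread between these pools. The counting errors given cover the counting of reads only, while the values after ± are SDs over the 6 pools of a group. Replicate numbers are given in every group, and deviations of same-numbered pools from their group means correlated by -0.17 to 0.08. Of 6 pools, 4 correlated best with their own number between F2 ifosfamide and F1 control, and 0 in the other comparisons. Such small correlations cannot show whether the numbers pair the pools. The main fits used no pairing.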

Additional observations from a re-analysis of the deposited data

Results flagged for a closer look

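Of 117 sets of 6 pools in the named windows, 2 held a pool far from the other 5, by Dixon's criterion on the gap to the nearest other pool, where chance gives about 1 in 20. In the member on chromosome 18 at 67495001, F2 ifosfamide pool 2 had 0.87 RPKM and the other F2 ifosfamide pools 0.36 to 0.53 RPKM. In the member on chromosome 7 at 144928001, F2 ifosfamide pool 1 had 8.41 RPKM and the others 10.2 to 10.8 RPKM.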

How the results depend on the processing

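Against 4148 members, 1140 mirror windows and 254 members without overlap, the median over pools gave 7118 members and 2165 mirror windows, a control level of at least 1 RPKM gave 1308, 75 and 96 in the same order, and one of at least 0.25 RPKM gave 12805 and 5458. Limits of 0.75 for the members and its inverse for the mirror set gave 16783 and 12075, and limits of 0.5 and 2 gave 74 and 0. A level minimum on the mean of all 18 pools gave 1766 mirror windows. With F1 ifosfamide pools 1 and 2 as 1 pool there were 6781 members, 453 of them without overlap. Leaving out 1 pool gave 3132 to 8178 members, 893 to 1959 mirror windows and 274 to 748 members without overlap. Without control pools 4 and 6 there were 2360 members. Without control pool 1 and F1 ifosfamide pools 1 and 2 there were 19108, with 5309 mirror windows and 6785 members without overlap. Both settings were chosen after seeing the data. Fewer pools are more easily without overlap, so these counts cannot be set against the 254. The shares of eligible windows without overlap in these settings are not given here. TMM-scaled CPM gave 5418 members and 774 mirror windows, 7 members per mirror window in place of 3.64, while a level minimum over all 18 pools gave 1.86 and the limit of 0.75 gave 1.39. The cause of these differences was not tested.

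Of 581 windows called between F1 ifosfamide and F1 control, the number was 213 with a minimum count of 30, 1038 without a filter and 351 with DESeq2's Wald test. Among choices made after seeing the data, it was 340 with a robust quasi-likelihood fit, 461 with TMM and library sizes taken before the filter and 609 with library sizes over all windows, so the number rests on such details of the fit. Of 253 between F2 ifosfamide and F1 control it was 54 with a minimum count of 30 and 52 with DESeq2. Of 21358 between F2 and F1 ifosfamide it was 8210 with DESeq2. DESeq2 gave no adjusted p to 951004, 855464 and 721009 windows in these comparisons, in the order named. The replicate number as a block gave 350, 620 and 13068 in these comparisons. In the same order, 0, 4 and 0 of 6 pools correlated best with their own number, at correlations of at most 0.08 for same-numbered pools. Of 156 ratios of 39 named windows recomputed with CPM or the median, 15 moved by more than the spread between the ifosfamide pools. The F1 ifosfamide ratios stayed on the same side of 1. With the median, some F2 ifosfamide ratios rose across 1, as from 0.912 to 1.1 at chr2:214675001 and from 0.983 to 1.1 at chr1:36361001. Others fell across it, as from 1.09 to 0.991 at chr13:33592001. A member held a median of 296 counts over 18 libraries, and counts at another depth were not tried.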

Other observations

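Chromosomes outside the rule also held windows within its limits. On X, 157 of 13214 windows at 0.5 RPKM or more in the F1 controls met the limits of the members (1.19%) and 12 those of the mirror set (0.0908%). On Y, 4 of 664 windows met the limits of the members and none those of the mirror set. Of the 16 windows of the mitochondrial genome, 7 met the limits of the members.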
